A study of Homo sapiens with 132 samples.

Results

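The genes that encode the ligands of the ERBB receptors were followed in 4 gastric cancer cell lines treated with EGF or with drugs against EGFR and HER2. They were AREG (amphiregulin), EREG (epiregulin), HBEGF (heparin-binding EGF-like growth factor), TGFA (transforming growth factor alpha), BTC (betacellulin), EPGN (epigen), EGF, NRG1, NRG2 and NRG4 (neuregulins), and they were chosen by gene symbol as 10 of the 65217 identifiers in each count file. The data were poly(A) RNA-seq counts of 44 conditions with 3 replicates each, which the submitters describe as biological triplicates. MKN1 and Hs746T cells were left untreated or received EGF (5 ng/ml), cetuximab (Cet, an antibody that blocks EGFR, 1 µg/ml), EGF plus cetuximab (EGF+Cet), trastuzumab (Tra, an antibody against HER2, 5 µg/ml), afatinib (Afa, a kinase inhibitor of EGFR and HER2, 0.5 µM) or trastuzumab plus afatinib (Tra+Afa), with 14 conditions and 42 libraries per line. In MKN7 and NCI-N87 the conditions were untreated cells and those with Tra, Afa or Tra+Afa, that is 8 conditions and 24 libraries per line. RNA was taken after 4 h and 24 h. All cells grew in medium with serum, which holds growth factors, the controls carried no afatinib solvent, and each line is a single line that was established from a metastatic site. The added EGF was a protein and was not sequenced, so EGF values here are those of the cells' own EGF gene.

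EGF-family ligands are made as precursors that span the cell membrane, and cell surface proteases of the ADAM family cut off the part that binds the receptor. AREG, TGFA, EPGN and EGF bind EGFR, whereas HBEGF, BTC and EREG bind both EGFR and ERBB4, and neuregulins bind ERBB3 and ERBB4; HER2 (gene ERBB2) has no ligand of its own and acts as the partner of the other receptors. Several of these ligand genes are known to be switched on downstream of EGFR and the MAP kinases, so that the receptor can feed its own ligands, and AREG and EREG levels have been studied as markers of tumours that depend on EGFR.

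On GRCh38, EPGN, EREG, AREG and BTC lie in this order on chromosome 4, within 486.214 kb. EPGN occupies 74308473 to 74315307, EREG 74365143 to 74388751, AREG 74445134 to 74455009 and, on the minus strand, BTC 74744759 to 74794686. The gap between AREG and BTC, 289.749 kb, is wider than the gaps of 49.835 kb and 56.382 kb between the other neighbours. The EGF gene lies further along chromosome 4 (109912884 to 110012266), HBEGF (140332843 to 140346631, minus strand) and NRG2 (139846779 to 140043299, minus strand) on chromosome 5, TGFA (70447280 to 70554193, minus strand) on chromosome 2 and NRG4 (75935969 to 76059795, minus strand) on chromosome 15. NRG4 overlaps FBXO22 on the opposite strand, and since the strand setting of the authors' counting is not given in the sources used here, NRG4 counts are uncertain to the extent that FBXO22 reads could be among them.

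The 250 bases before the start of AREG, EREG, HBEGF and TGFA, the ligand genes that fell with Afa in at least 1 line, and of BTC, a chromosome 4 neighbour that did not, are printed to show the letters at these starts (RefSeq, GRCh38.p14, 5′ to 3′ on the gene's strand). They span chr4:74444886-74445135 (AREG, plus strand), chr4:74364895-74365144 (EREG, plus strand), chr5:140346604-140346853 (HBEGF, minus strand), chr2:70553827-70554076 (TGFA, minus strand) and chr4:74794524-74794773 (BTC, minus strand). Capitals mark a cyclic AMP response element (CRE, TGACGTCA) and a TATA box (TATAAA).
AREG: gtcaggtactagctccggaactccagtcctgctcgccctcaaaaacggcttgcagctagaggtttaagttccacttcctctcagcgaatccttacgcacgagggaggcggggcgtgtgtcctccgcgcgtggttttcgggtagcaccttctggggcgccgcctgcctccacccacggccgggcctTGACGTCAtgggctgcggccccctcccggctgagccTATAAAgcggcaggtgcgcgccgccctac
EREG: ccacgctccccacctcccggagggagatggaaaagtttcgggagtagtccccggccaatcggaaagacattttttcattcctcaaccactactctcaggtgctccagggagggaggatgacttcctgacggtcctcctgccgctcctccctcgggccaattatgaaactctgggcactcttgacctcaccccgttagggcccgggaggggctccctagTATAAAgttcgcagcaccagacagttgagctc
HBEGF: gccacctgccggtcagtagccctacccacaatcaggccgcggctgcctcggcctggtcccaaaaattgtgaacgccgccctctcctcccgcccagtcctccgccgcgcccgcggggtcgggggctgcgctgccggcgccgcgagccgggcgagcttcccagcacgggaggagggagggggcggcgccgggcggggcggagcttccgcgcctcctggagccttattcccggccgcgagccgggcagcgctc
TGFA: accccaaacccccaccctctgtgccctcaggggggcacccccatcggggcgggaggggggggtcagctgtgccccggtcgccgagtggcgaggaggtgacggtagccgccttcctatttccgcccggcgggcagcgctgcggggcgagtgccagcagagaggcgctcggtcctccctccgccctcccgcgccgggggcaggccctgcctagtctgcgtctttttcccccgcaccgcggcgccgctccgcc
BTC: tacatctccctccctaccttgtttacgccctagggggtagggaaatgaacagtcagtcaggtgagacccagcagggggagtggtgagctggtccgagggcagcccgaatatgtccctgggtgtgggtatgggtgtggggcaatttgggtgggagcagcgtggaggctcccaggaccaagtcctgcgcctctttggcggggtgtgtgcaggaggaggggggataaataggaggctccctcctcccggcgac
The search covered both strands for TGACGTCA, its first part TGACG (which a CRE holds on each strand, so the matches overlap), TATAAA, the GC box GGGCGG, the AP-1 site TGANTCA, the EGR site GCGNGGGCG, the ETS core CCGGAAG, the NF-kB site and the SRF CArG box. AREG holds a CRE 65 to 58 bases before its start, a TATA box at 29 to 24 bases and a GC box at 9 to 4 bases, and EREG a TATA box at 32 to 27 bases and a TGACG at 125 to 121 bases. EPGN, whose sequence is not printed, holds a TATA box at 29 to 24 bases and a TGACG at 44 to 40 bases. HBEGF holds 5 GC boxes and no TATA box, TGFA 3 GC boxes and a TGACG, and BTC none of these motifs. Among 35116 RefSeq promoter windows of the same length, 1.65% hold a CRE, 21.2% a TGACG, 10.7% a TATA box and 42.6% a GC box. These matches are letters only, and no binding was measured.

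Libraries held 25832557 to 69434151 counts (median 50725775), and 3 counts, used here as the floor of detection, correspond to 0.0432 to 0.116 CPM (counts scaled to the library total), which covers counting error only. The labelled cell type was checked against markers fixed for it. MKN7 and NCI-N87 carried epithelial EPCAM at 637 and 521 CPM and CDH1 at 260 and 268 CPM. Hs746T had 30.4 CPM of EPCAM and 0.821 CPM of CDH1. Its epithelial keratins KRT8, KRT18 and KRT19 were at 348, 147 and 29.3 CPM, present but lower than in every other line. It had 1590 CPM of VIM and 566 CPM of COL1A1. EPCAM and CDH1 were thus low and VIM and COL1A1 high in a line labelled as gastric cancer. DCN, another fibroblast gene, was at 0.103 CPM there, and of the endothelial markers PECAM1 was at 166 CPM and CDH5 at 0.0364 CPM. MKN1 had 23.5 CPM of EPCAM, 2.02 CPM of CDH1 and 468 CPM of VIM, with KRT8 at 11400 CPM. ERBB2 ranged from 85.1 CPM in Hs746T to 12900 CPM in NCI-N87, and EGFR from 189 CPM in NCI-N87 to 578 CPM in MKN7. In bulk RNA, fewer cells that express a gene and less RNA per cell cannot be told apart.

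Without treatment, ligand levels differed between the lines. TGFA, a ligand of EGFR, was highest in MKN7, where the 6 untreated libraries ranged from 198 to 308 CPM with a median of 261 CPM. In NCI-N87 they ranged from 114 to 136 CPM with a median of 117 CPM, and in MKN1 from 15.8 to 43.9 CPM with a median of 26.5 CPM. Hs746T had the lowest TGFA level, 4.31 to 10.9 CPM. No line overlapped another, and TGFA was 9.75-fold higher in MKN7 than in MKN1 (log2 fold change 3.29 ± 0.18 SE, edgeR quasi-likelihood test over all genes, as for every fold change below) and 32.7-fold lower in Hs746T than in MKN7.

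EREG was high in the 3 lines other than Hs746T. It ranged from 76.6 to 145 CPM in MKN7 (median 114 CPM), from 23.4 to 134 CPM in MKN1 (median 77.1 CPM) and from 38.4 to 91.8 CPM in NCI-N87 (median 46.8 CPM). Hs746T had 2.15 to 4.67 CPM, and its EREG level was 22.5-fold below that of MKN1 (log2 fold change -4.49 ± 0.29 SE). The ranges of MKN1 and NCI-N87 overlapped and their difference, -0.37 on the log2 scale, did not pass the test (adjusted p = 0.162, edgeR). AREG, the neighbour of EREG on chromosome 4, followed the order MKN7 (26.0 to 61.1 CPM), NCI-N87 (14.8 to 35.0 CPM), MKN1 (5.88 to 29.7 CPM) and Hs746T (7.13 to 10.7 CPM), with overlapping ranges between each pair of neighbours in that order.

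HBEGF, the ligand that is also known as the receptor of diphtheria toxin, was highest in MKN7 (73.2 to 137 CPM, median 101 CPM) and lowest in NCI-N87 (9.20 to 13.5 CPM, median 10.6 CPM). MKN1 (15.2 to 52.6 CPM) and Hs746T (30.4 to 49.9 CPM) lay between them and overlapped, and their difference of 0.30 on the log2 scale did not pass the test (adjusted p = 0.067, edgeR). BTC, which lies on chromosome 4 with EREG and AREG, had levels of the same order in all lines. Its medians were 4.24 CPM in MKN1, 6.78 CPM in NCI-N87, 7.35 CPM in Hs746T and 7.84 CPM in MKN7, and it was the one member for which none of the 6 pairs of lines passed both the test and the fold limit used here, a log2 fold change above 1 or below -1. Against MKN1, each of the other lines passed the test alone, with log2 fold changes of 0.65 in NCI-N87, 0.73 in Hs746T and 0.77 in MKN7.

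The neuregulins were unevenly spread. NRG1, a ligand of ERBB3 and ERBB4, ranged from 64.2 to 80.5 CPM in Hs746T (median 68.1 CPM) and did not exceed 3.68 CPM in an untreated library of another line. It was 56.4-fold higher in Hs746T than in MKN1 (log2 fold change 5.82 ± 0.28 SE), 285-fold higher than in MKN7 (8.15 ± 0.33 SE) and 39.9-fold higher than in NCI-N87 (5.32 ± 0.27 SE). In MKN7, NRG1 was near the floor, with 1 to 27 counts per library and 4 of 24 libraries at or below 3 counts. The size of that ratio is therefore uncertain. NRG2, whose product also binds ERBB3 and ERBB4, was highest in Hs746T too, at 8.80 to 14.2 CPM, against 2.35 to 3.10 CPM in MKN1 and less than 1 CPM in each untreated library of MKN7 and NCI-N87. Hs746T had little RNA of the receptors of these ligands, with ERBB3 at 0.93 CPM and ERBB4 at 0.931 CPM. ERBB4 was also low in MKN1 (0.888 CPM) and NCI-N87 (0.361 CPM), against 7.27 CPM in MKN7. NRG4, a ligand of ERBB4, was high in NCI-N87, with 26.1 to 32.1 CPM there and at most 1.93 CPM in the untreated libraries of the other lines, and it was 25.1-fold higher in NCI-N87 than in MKN1 (4.65 ± 0.19 SE). FBXO22, which overlaps NRG4, was spread evenly by comparison, with medians of 33.9 CPM in MKN1, 49.0 CPM in Hs746T, 49.1 CPM in MKN7 and 50.4 CPM in NCI-N87.

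EPGN and the EGF gene were low in most libraries. EPGN did not exceed 0.685 CPM in an untreated library, and it was at or below 3 counts in 16 of 42 libraries of MKN1, 15 of 24 of MKN7, 10 of 42 of Hs746T and 0 of 24 of NCI-N87. EGF ranged from 4.50 to 5.95 CPM in Hs746T and from 2.44 to 4.72 CPM in NCI-N87, and from 0.502 to 2.36 CPM in MKN1. In MKN7 it was at 0.0221 to 0.117 CPM, near the floor. EPGN was too low to be tested within MKN7 and Hs746T, and EGF within MKN7. Over all 6 pairs of lines, 40 of 60 member tests passed, against 45.7% of all tests.

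**Figure D1:**
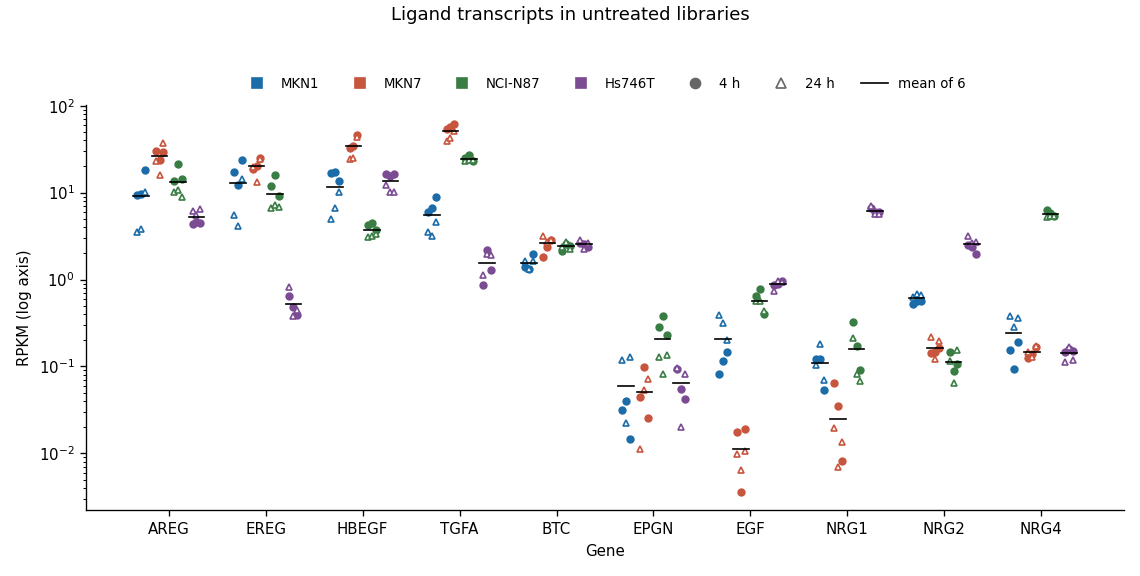
Levels of the 10 ligand genes in untreated cells, in RPKM on a log axis, with 1 point per library (filled at 4 h, open at 24 h, 6 per line) and a bar at their mean. NRG1 (mean RPKM 6.19) stands out in Hs746T, NRG4 (5.61) in NCI-N87 and TGFA (51.3) in MKN7, while BTC lies close together in all lines.

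Since gene lengths differ, levels of different ligands were compared as CPM per kilobase of exon (RPKM). The summed RPKM of the 10 genes in untreated cells was 135 in MKN7, 59.9 in NCI-N87, 41.9 in MKN1 and 33.2 in Hs746T. The leading ligand was TGFA in MKN7 (38.2% of the sum) and in NCI-N87 (41.3%), EREG in MKN1 (29.1%, next to HBEGF with 28.1%) and HBEGF in Hs746T (40.3%, with NRG1 at 18.6%).

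EGF treatment of MKN1 cells addresses how the RNA of the ligands responds to a ligand of EGFR. AREG, EREG, HBEGF and TGFA rose at 4 h and at 24 h, whereas the EGF gene and NRG4 fell at 24 h. These were 8 increases and 2 decreases among 20 member tests, against 4.92% of all tests at both times (1.67% as increases and 3.25% as decreases). AREG, which leads the increase, was at 15.7, 15.7 and 29.7 CPM in the 3 untreated replicates at 4 h and at 86.8, 73.3 and 129 CPM with EGF. All EGF libraries lay above all untreated ones, and the increase was 4.77-fold (log2 fold change 2.26 ± 0.42 SE, adjusted p = 0.000327). At 24 h, AREG was at 5.88, 6.23 and 17.0 CPM untreated and at 24.7, 28.7 and 45.6 CPM with EGF, again without overlap, a 3.46-fold increase (1.79 ± 0.42 SE, adjusted p = 0.00104). Replicate 3 was the highest AREG library of MKN1 in both groups and at both times. Its sample numbers in the labels belong to another series than those of replicates 1 and 2, and whether this plays a part was not tested.

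EREG, the next gene on chromosome 4, had 100, 71.1 and 134 CPM in untreated MKN1 cells at 4 h and 278, 197 and 312 CPM with EGF (1.38 ± 0.38 SE, adjusted p = 0.0192). At 24 h it had 31.7, 23.4 and 83.0 CPM untreated and 154, 106 and 202 CPM with EGF (1.76 ± 0.38 SE, adjusted p = 0.000513). The groups did not overlap at either time, but replicate 3 of the untreated cells at 24 h was well above the other two. HBEGF increased from 50.5, 52.6 and 41.2 CPM to 131.6, 133 and 106 CPM at 4 h (1.37 ± 0.29 SE, adjusted p = 0.00185) and from 15.2, 19.9 and 30.9 CPM to 43.6, 49.7 and 49.3 CPM at 24 h (1.13 ± 0.29 SE, adjusted p = 0.00287). TGFA was at 30.1, 33.3 and 43.9 CPM untreated and at 82.0, 77.2 and 94.9 CPM with EGF at 4 h (1.25 ± 0.18 SE, adjusted p = 5.21e-06). It was at 17.4, 15.8 and 23.0 CPM against 39.5, 34.8 and 42.3 CPM at 24 h (1.07 ± 0.18 SE, adjusted p = 1.65e-05). Of these 4 genes, TGFA had the smallest standard error and the smallest fold change. Scaled by library size alone, the 24 h values were 0.94 for HBEGF and 0.88 for TGFA, below the fold limit, while the median of all genes moved by -0.20. Without replicate 1 of every group, 6 of the 10 calls stood, and EREG (1.32, adjusted p = 0.307) and HBEGF (1.36, adjusted p = 0.0917) at 4 h and EREG (1.56, adjusted p = 0.051) and HBEGF (0.98, adjusted p = 0.0929) at 24 h were lost with little change in size. Without replicate 2, EREG at 4 h (1.35, adjusted p = 0.0902) and HBEGF at 24 h (1.03, adjusted p = 0.0609) were lost.

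The 2 members that fell with EGF, a ligand of EGFR and one of ERBB4, were both low in MKN1. The EGF gene was at 2.36, 1.93 and 1.22 CPM in untreated cells at 24 h and at 0.581, 0.406 and 0.711 CPM with EGF (-1.67 ± 0.24 SE, adjusted p = 2.04e-06). NRG4 was at 1.93, 1.43 and 1.83 CPM untreated and at 0.332, 0.541 and 0.634 CPM with EGF (-1.75 ± 0.30 SE, adjusted p = 2.12e-05). Neither group overlapped with its control, and FBXO22 was at 0.19 in the same contrast (adjusted p = 0.0658, edgeR). At 4 h the EGF gene was at 0.502, 0.710 and 0.898 CPM in untreated cells, so its 24 h level with EGF lay where the untreated cells had been at 4 h. The effect of EGF on its own gene was 1.42 lower on the log2 scale at 24 h than at 4 h in the test of that difference (adjusted p = 0.0109), a call lost without replicate 1 (-1.23, adjusted p = 0.218) and without replicate 2 (-1.02, adjusted p = 0.221). Over EGF, Cet and Afa in MKN1 and Afa in the other lines, 5 of 57 member tests of a difference between the times passed, against 3.79% of all tests. No other member passed this test for EGF without the replicate number as a block. With the block, NRG4 did (-1.39, adjusted p = 0.00365, edgeR), but whether equal numbers at 4 h and 24 h pair was not checked.

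**Figure D2:**
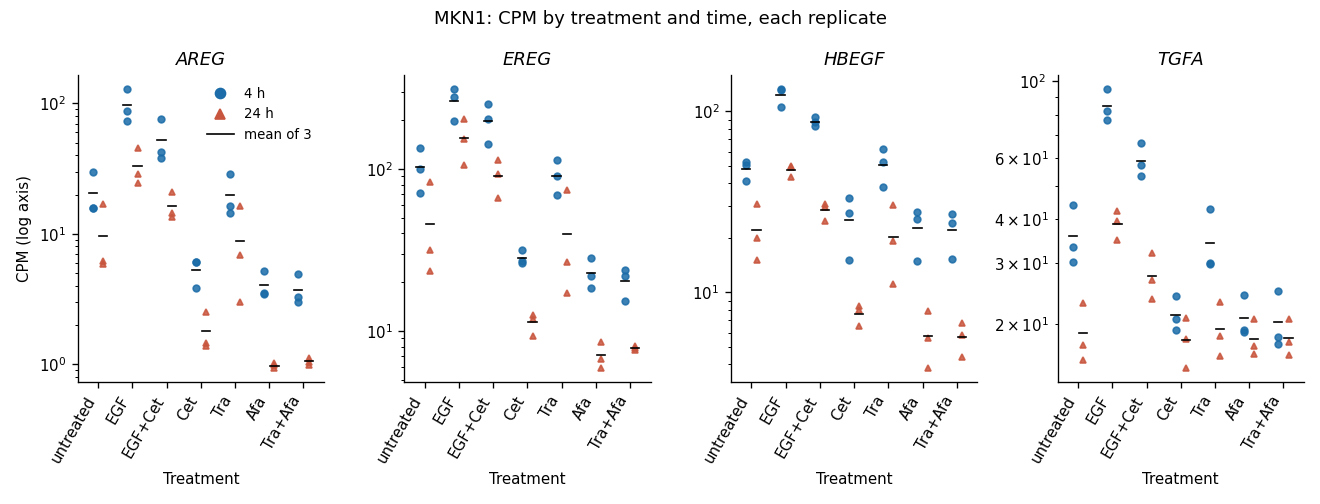
Levels of AREG, EREG, HBEGF and TGFA in MKN1 cells by treatment, in CPM on a log axis, with 1 point per replicate (circles at 4 h, triangles at 24 h) and a bar at the mean of 3. All 4 genes lie above untreated with EGF, and AREG, EREG and HBEGF lie below untreated with Cet and Afa, AREG at 0.937 to 1.02 CPM with Afa at 24 h.

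Cetuximab without added EGF lowered AREG and EREG at both times and HBEGF at 24 h in MKN1. These were 5 of 20 member tests, against 0.833% of all tests (0.293% as decreases). AREG was at 3.82, 6.04 and 6.03 CPM with Cet at 4 h, 3.85-fold below untreated (-1.95 ± 0.43 SE, adjusted p = 0.0109). At 24 h it was at 1.47, 1.39 and 2.52 CPM, 5.51-fold below untreated (-2.46 ± 0.47 SE, adjusted p = 0.00104). EREG was at 27.0, 26.3 and 31.8 CPM at 4 h (-1.85 ± 0.39 SE, adjusted p = 0.00576) and at 12.5, 9.38 and 11.9 CPM at 24 h (-2.05 ± 0.40 SE, adjusted p = 0.00116). HBEGF fell at 24 h, to 8.38, 7.97 and 6.51 CPM (-1.55 ± 0.31 SE, adjusted p = 0.00135). No Cet library of these 5 comparisons reached an untreated one. TGFA was lower at 4 h but within the fold limit (-0.75, adjusted p = 0.0189), and at 24 h it was at 18.2, 15 and 20.9 CPM, overlapping the untreated libraries. At 24 h the means of NRG4 (2.80 against 1.73 CPM, adjusted p = 0.0807), the EGF gene (2.74 against 1.84 CPM, adjusted p = 0.0871) and BTC (6.39 against 4.30 CPM, adjusted p = 0.202) were above those of untreated cells and did not pass. Without replicate 1 of every group, 3 of the 5 calls stood, and those of AREG (-1.92, adjusted p = 0.147) and EREG (-1.83, adjusted p = 0.247) at 4 h did not. AREG at 4 h was also lost without replicate 2 (-2.19, adjusted p = 0.15).

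With EGF present, cetuximab gave means between those of EGF and of untreated cells. AREG was at 38.4, 42.6 and 75.4 CPM with EGF+Cet at 4 h and at 13.4, 14.4 and 20.8 CPM at 24 h. EREG was at 202, 142 and 251 CPM and at 92.6, 66.3 and 113 CPM, HBEGF at 87.8, 93.2 and 82.6 CPM and at 29.7, 30.9 and 25.0 CPM, and TGFA at 57.1, 53.2 and 66.5 CPM and at 26.9, 23.6 and 32.0 CPM. Each of these means was below that with EGF alone and above that of untreated cells. None of 20 member tests of EGF+Cet against EGF passed, against 0.141% of all tests. With the replicate number as a block, AREG at 24 h did (-1.01, adjusted p = 0.000381, edgeR). At 24 h, same-numbered MKN1 libraries did not deviate together in every pair, so this block is less secure there. By unadjusted p below 0.05 and without the block, there were 7 (edgeR) and 5 (DESeq2), and DESeq2 also called 0. Without the block, the largest difference was that of AREG at 24 h, -1.04 ± 0.41 SE (adjusted p = 0.325, edgeR), and that of TGFA at 24 h was -0.51 (adjusted p = 0.222, edgeR).

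Afatinib was given to all 4 lines, and it lowered AREG, EREG and HBEGF at both times in MKN1, MKN7 and NCI-N87. In MKN1, 7 of 20 member tests passed, 6 as decreases (0.729% of all tests) and 1 as an increase (1.71%), together against 2.44%. AREG was at 3.50, 3.49 and 5.21 CPM at 4 h, 5.05-fold below untreated (-2.34 ± 0.44 SE, adjusted p = 0.000923). At 24 h it was at 0.937, 0.985 and 1.02 CPM, or 50 to 52 counts per library, 9.97-fold below untreated (-3.32 ± 0.51 SE, adjusted p = 1.32e-05). EREG was at 21.9, 18.5 and 28.3 CPM at 4 h (-2.17 ± 0.39 SE, adjusted p = 0.000563) and at 8.61, 5.91 and 6.71 CPM at 24 h (-2.72 ± 0.41 SE, adjusted p = 1.04e-05). Both genes lay below every untreated library of their time. HBEGF was at 25.4, 27.8 and 15 CPM at 4 h (-1.10 ± 0.29 SE, adjusted p = 0.0283) and at 5.62, 7.90 and 3.82 CPM at 24 h (-1.94 ± 0.31 SE, adjusted p = 2.37e-05), again below every untreated library. TGFA was lower at 4 h, at 19.2, 19 and 24.3 CPM, but within the fold limit (-0.80, adjusted p = 0.00588), and at 17.3, 16.4 and 20.6 CPM at 24 h it lay within the untreated range (-0.07). NRG4 rose at 24 h, from 1.93, 1.43 and 1.83 CPM to 3.42, 3.33 and 4.68 CPM (1.12 ± 0.25 SE, adjusted p = 0.00113), without overlap. The EGF gene was at 2.95, 2.58 and 3.27 CPM at 24 h, higher than untreated but within the fold limit (0.65, adjusted p = 0.0209). In MKN1 at 4 h the call of HBEGF was lost without any 1 of the 3 replicate numbers (-1.15, adjusted p = 0.231, without replicate 1; -1.20, adjusted p = 0.153, without replicate 2; -0.95 without replicate 3), that of EREG without replicate 1 (-2.16, adjusted p = 0.0677), and that of AREG without replicate 2 (-2.38, adjusted p = 0.0654). NRG4 at 24 h was below the fold limit without replicate 3 (0.99).

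In MKN7, 7 of 16 member tests passed, each as a decrease, against 8.47% of all tests (2.42% as decreases). AREG was at 49.5, 39.2 and 48.6 CPM untreated and at 16.5, 11.3 and 14.5 CPM with Afa at 4 h (-1.73 ± 0.34 SE, adjusted p = 0.000766). At 24 h it was at 38.0, 26.0 and 61.1 CPM untreated and at 7.38, 4.53 and 11.9 CPM with Afa, 5.29-fold lower (-2.40 ± 0.35 SE, adjusted p = 9.27e-06). EREG went from 108, 116 and 145 CPM to 43.6, 48.1 and 54.8 CPM at 4 h (-1.37 ± 0.31 SE, adjusted p = 0.00267) and from 111, 76.6 and 139 CPM to 29.9, 18.0 and 49.5 CPM at 24 h (-1.75 ± 0.31 SE, adjusted p = 9.18e-05). Treated and untreated libraries of AREG and EREG did not overlap. HBEGF, which had its highest level in this line, went from 98.1, 104 and 137 CPM to 33.6, 28.1 and 23.9 CPM at 4 h (-2.03 ± 0.20 SE, adjusted p = 2.85e-07) and from 73.2, 76.2 and 131.6 CPM to 36.8, 33.7 and 30.5 CPM at 24 h (-1.49 ± 0.20 SE, adjusted p = 2.82e-06). TGFA, the leading ligand of MKN7, was the one member that passed the fold limit at 4 h and not at 24 h. It went from 266, 286 and 308 CPM to 94.4, 108 and 98.6 CPM at 4 h, 2.94-fold (-1.55 ± 0.10 SE, adjusted p = 4.93e-10), and was at 198, 212 and 257 CPM against 133, 136 and 148 CPM at 24 h (-0.68 ± 0.10 SE, adjusted p = 5.14e-06). The groups did not overlap at either time, and the 2 effects on TGFA differed by 0.87 (adjusted p = 0.000127), within the fold limit. Without replicate 1, the call of EREG at 4 h was lost (-1.37, adjusted p = 0.0893).

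NCI-N87, the line with the most ERBB2 RNA, had decreases of the same 3 genes and increases of others. With Afa, 9 of 20 member tests passed, 6 as decreases (6.35% of all tests) and 3 as increases (10.1%), together against 16.4%. At 24 h alone 29.6% of all genes tested passed in this line, the background against which its 24 h calls are to be read. AREG went from 22.6, 35.0 and 23.8 CPM to 8.15, 9.59 and 9.42 CPM at 4 h (-1.58 ± 0.15 SE, adjusted p = 1.45e-07) and from 16.8, 17.4 and 14.8 CPM to 3.16, 2.86 and 4.00 CPM at 24 h (-2.32 ± 0.16 SE, adjusted p = 4.89e-11). EREG went from 67.7, 91.8 and 52.4 CPM to 18.5, 22.1 and 18.4 CPM at 4 h (-1.84 ± 0.16 SE, adjusted p = 5.5e-08) and from 38.4, 41.3 and 39.6 CPM to 5.36, 5.63 and 5.23 CPM at 24 h, 7.51-fold lower (-2.91 ± 0.17 SE, adjusted p = 6.19e-12). HBEGF went from 12.9, 13.5 and 11.1 CPM to 6.34, 4.97 and 5.22 CPM at 4 h (-1.18 ± 0.15 SE, adjusted p = 8.69e-06) and from 9.20, 9.60 and 10.2 CPM to 2.6, 1.83 and 1.93 CPM at 24 h (-2.22 ± 0.16 SE, adjusted p = 1.62e-10). All 6 comparisons were free of overlap. EREG and HBEGF fell further at 24 h than at 4 h, by 1.07 and 1.04 on the log2 scale in the test of the difference between the times (adjusted p = 0.000959 and 0.000848). Both were within the fold limit with library size alone (-0.88 and -0.84), with no filter on low counts (-1.0 and -0.97), with at least 10 counts in every library (-0.97 and -0.94) and without replicate 3 (-0.89 and -0.87). TGFA, the leading ligand of NCI-N87, was lower within the fold limit at both times, at 72.3, 75.5 and 70.1 CPM against 124, 136 and 116 CPM at 4 h (-0.78) and at 63.6, 65.6 and 71.4 CPM against 114, 118 and 117 CPM at 24 h (-0.83).

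The members that rose in NCI-N87 at 24 h were BTC, NRG2 and EPGN. BTC was at 6.73, 7.58 and 6.34 CPM untreated and at 16.7, 19.3 and 18.2 CPM with Afa, 2.56-fold higher (1.36 ± 0.12 SE, adjusted p = 2.02e-09), and the groups were far apart. At 4 h it was at 7.09, 7.15 and 7.03 CPM with Afa, and the increase at 24 h exceeded that at 4 h by 1.28 on the log2 scale (adjusted p = 4.21e-06). NRG2 was at 0.525, 0.295 and 0.707 CPM untreated and at 1.15, 1.44 and 0.945 CPM with Afa (1.18 ± 0.30 SE, adjusted p = 0.00168). EPGN was at 0.233, 0.147 and 0.243 CPM untreated and at 0.472, 0.515 and 0.378 CPM with Afa (1.09 ± 0.36 SE, adjusted p = 0.0112). With Tra at the same time it was at 0.278, 0.459 and 0.340 CPM, also above the untreated libraries. Both are rare in this line, and their calls depended on single replicates: without replicate 2, NRG2 was at 0.76 (adjusted p = 0.085) and EPGN at 0.82 (adjusted p = 0.107), and without replicate 1, EPGN was at 1.20 (adjusted p = 0.0513). At 4 h EPGN was at 0.523, 0.685 and 0.417 CPM untreated and at 0.366, 0.338 and 0.160 CPM with Afa, and the effects at the 2 times differed by 1.99 (adjusted p = 0.00299; 1.66 and adjusted p = 0.0543 without replicate 2). NRG4, already high in NCI-N87, was higher within the fold limit, at 51.0, 50.7 and 46.3 CPM against 32.1, 29.6 and 26.8 CPM at 4 h (0.75, adjusted p = 1.63e-07) and at 48.5, 51.2 and 49.2 CPM against 26.1, 27.3 and 27.4 CPM at 24 h (0.85, adjusted p = 1.23e-09). FBXO22 was at -0.23 at 4 h and -0.77 at 24 h in the same contrasts, the other direction.

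**Figure D3:**
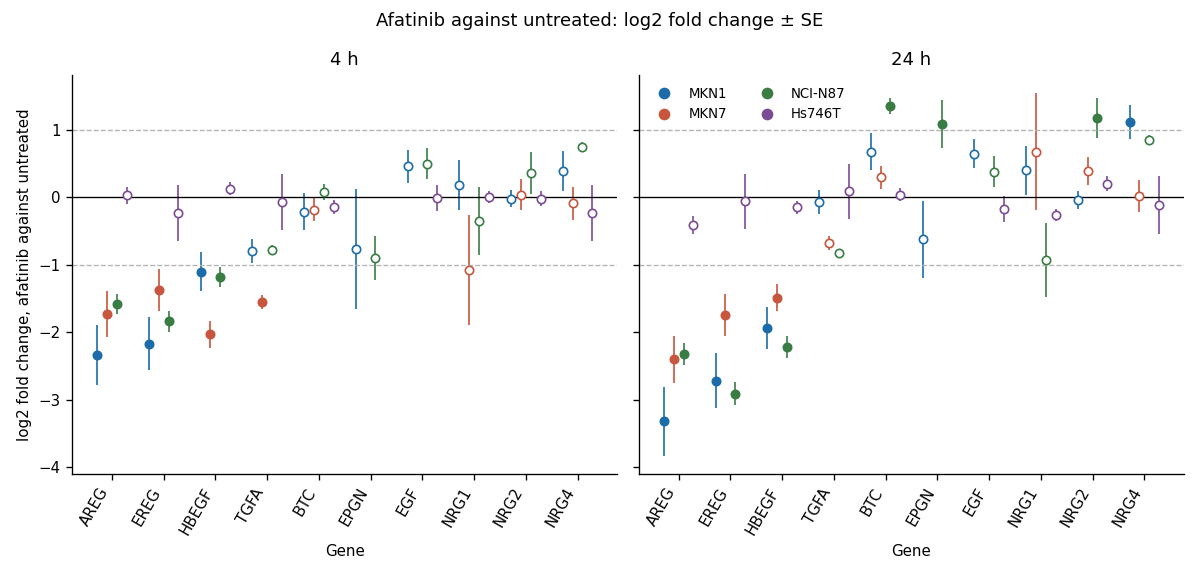
Log2 fold change of each ligand gene with Afa against untreated, with bars of 1 SE (edgeR), by line at 4 h and 24 h; filled points passed the test and the fold limit (dashed lines at 1 and -1), and genes too low to be tested in a line have no point. AREG, EREG and HBEGF lie below -1 at both times in MKN1, MKN7 and NCI-N87, and the members in Hs746T lie between -0.41 and 0.20.

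**Figure D4:**
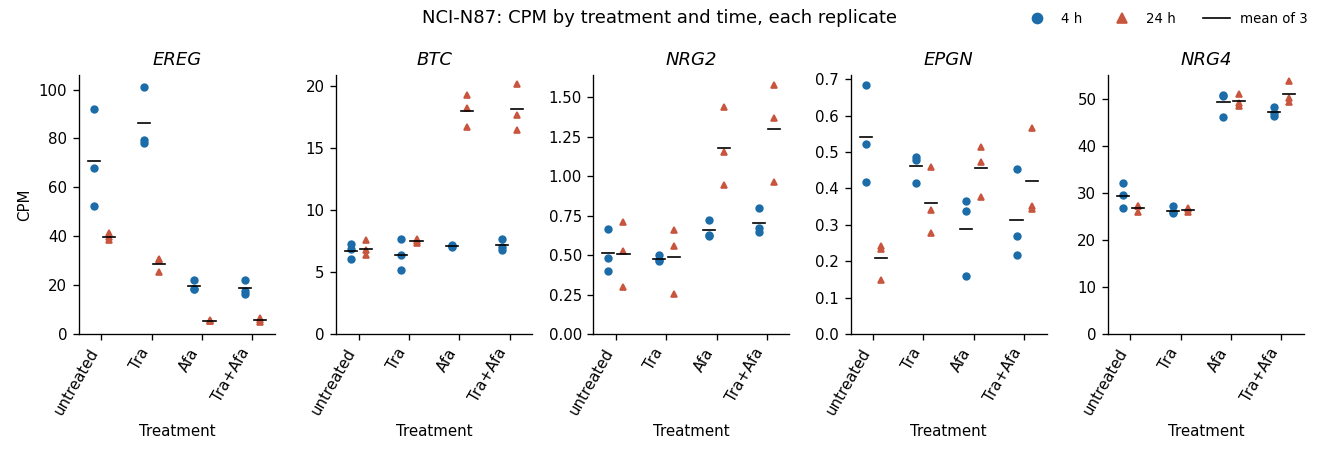
Levels of EREG, BTC, NRG2, EPGN and NRG4 in NCI-N87 cells by treatment, in CPM on axes that start at 0, with 1 point per replicate (circles at 4 h, triangles at 24 h) and a bar at the mean of 3. With Afa, EREG lies below untreated at both times, BTC lies above it at 24 h (16.7 to 19.3 CPM), and NRG4 lies above it at both times.

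The neighbours on chromosome 4 thus went different ways in NCI-N87 at 24 h, where EREG and AREG fell and BTC and EPGN rose. The other protein-coding genes measured lie outside the stretch from EPGN to BTC, within 500 kb of it. Of these, 5 of 6 tested fell there, among them the chemokine genes CXCL5 (-3.18), CXCL1 (-2.01) and CXCL3 (-1.83), against 11.5% of all genes as decreases. In MKN1, EGF raised CXCL3 (1.66) and CXCL1 (1.61) at 4 h and CXCL5 (1.98) and CXCL1 (1.16) at 24 h, of 8 tested, and Afa lowered CXCL1 at 4 h (-1.89). In MKN7, Afa lowered CXCL5 (-1.85), CXCL2 (-1.05) and PARM1 (-1.01) at 24 h, of 8 tested, and in Hs746T none of 7 tested passed. Over both times and all genes, 1.67% of tests passed as increases with EGF in MKN1. With Afa, 0.729% passed as decreases in MKN1 and 2.42% in MKN7.

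Trastuzumab alone gave no call in any line, 0 of 20 member tests in MKN1, 0 of 16 in MKN7, 0 of 20 in NCI-N87 and 0 of 18 in Hs746T, and edgeR called 0% of all genes in these contrasts. By unadjusted p below 0.05 there were 0, 2, 7 and 0 in the 4 lines (edgeR) and 0, 1, 6 and 0 (DESeq2), and DESeq2 called 0 members in each. In NCI-N87, AREG was at 0.47 on the log2 scale with Tra at 4 h (unadjusted p = 0.00348) and at -0.48 at 24 h (unadjusted p = 0.00369), both with an adjusted p of 1 (edgeR). Tra+Afa gave values close to Afa alone. In MKN1, 7 of 20 member tests passed (2.49% of all tests), with AREG at -2.46 and -3.21, EREG at -2.34 and -2.57, HBEGF at -1.13 and -1.98 at 4 h and 24 h, and NRG4 at 1.24 at 24 h. Of these, HBEGF at 4 h was lost without replicate 1 (adjusted p = 0.224) and without replicate 2 (adjusted p = 0.127), and AREG at 4 h without replicate 2 (adjusted p = 0.0548). In MKN7, 7 of 16 passed (8.79%), with TGFA at -1.52 at 4 h and AREG at -2.51, EREG at -1.89 and HBEGF at -1.47 at 24 h. In NCI-N87, 9 of 20 passed (17.3%), 2 as increases, with EREG at -2.83, BTC at 1.36 and NRG2 at 1.33 at 24 h. The same contrast called NRG1, at 2.43, 0.927 and 0.773 CPM untreated and at 0.771, 0.315 and 0.489 CPM with Tra+Afa (-1.41 ± 0.57 SE, adjusted p = 0.0351), where 1 treated library lay almost at the level of an untreated one. NRG1 was not called without replicate 1 (-1.07, adjusted p = 0.0773) or replicate 2 (-1.35, adjusted p = 0.165), nor with Afa alone (-0.93, adjusted p = 0.144).

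In Hs746T, none of the 6 treatment contrasts called a member at either time, 0 of 18 in each, and edgeR called 0% of all genes. By unadjusted p below 0.05 there were 2 each for EGF, Afa and Tra+Afa and 0 each for Cet, Tra and EGF+Cet against EGF, by edgeR and by DESeq2, and DESeq2 called 0 members. The fold changes of all members lay between -0.62 and 0.42 on the log2 scale. AREG was at 10.3, 9.12 and 10.7 CPM untreated and at 7.47, 7.70 and 7.52 CPM with Afa at 24 h, without overlap, but the difference of -0.41 ± 0.13 SE did not pass over all genes (unadjusted p = 0.00273, adjusted p = 1). At 4 h it was at 7.13, 7.53 and 7.29 CPM untreated and at 7.15, 7.57 and 7.11 CPM with Afa. NRG1, the neuregulin of this line, was at 80.5, 64.9 and 64.2 CPM untreated and at 61.7, 56.8 and 57.3 CPM with Afa at 24 h (-0.26, unadjusted p = 0.0101, adjusted p = 1). With EGF at 4 h, AREG was at 8.72, 8.78 and 9.64 CPM (0.33, adjusted p = 1) and HBEGF at 58.1, 57.4 and 57.2 CPM against 49.9, 47.5 and 49.2 CPM (0.26, adjusted p = 1).

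The effects in Hs746T and MKN1 were compared by testing their difference in 1 fit over all libraries. Of 120 member tests of a difference in effect between lines, 17 passed, against 2.8% of all tests. With the replicate number as a block, since same-numbered samples deviated together, though not in every pair of MKN1 at 24 h, 31 passed. For Afa at 24 h, AREG differed by 2.89 on the log2 scale (adjusted p = 2.22e-05), EREG by 2.62 (adjusted p = 0.000987) and HBEGF by 1.78 (adjusted p = 5.7e-05), each as a smaller decrease in Hs746T. For EGF at 24 h, AREG differed by -1.73 (adjusted p = 0.00465), EREG by -1.60 (adjusted p = 0.0442) and HBEGF by -1.11 (adjusted p = 0.00988), each as a smaller increase in Hs746T. For Cet at 24 h, AREG differed by 2.46 (adjusted p = 0.00186) and HBEGF by 1.51 (adjusted p = 0.00605). Only with the block, EREG for Cet (1.93, adjusted p = 8.61e-06, edgeR) passed at 24 h. So did TGFA for EGF (-1.02, adjusted p = 1.97e-09) and NRG4 for Afa (-1.32, adjusted p = 0.000152) at 24 h, and HBEGF for Cet at 4 h (1.11, adjusted p = 0.00118). At 4 h, EREG passed for none of these treatments without the block, and with it for all, at 1.84 for Afa (adjusted p = 3.88e-05), -1.44 for EGF (adjusted p = 0.000716) and 1.84 for Cet (adjusted p = 3.02e-05), while TGFA differed by -1.22 for EGF (adjusted p = 6.56e-12). Among the 3 lines with calls for Afa, 2 differences passed without the block, both at 24 h. BTC rose more in NCI-N87 than in MKN7, by 1.09 (adjusted p = 0.00119), and NRG2 differed by 1.24 between NCI-N87 and MKN1 (adjusted p = 4.75e-05). With the block, 6 more passed among these lines. They were NRG1 at 4 h (-1.28, adjusted p = 0.0428) and NRG4 at 24 h (-1.10, adjusted p = 0.000401) for MKN7 against MKN1, EPGN (1.67, adjusted p = 0.0364) and NRG1 (-1.32, adjusted p = 1.94e-05) at 24 h for NCI-N87 against MKN1, and EREG (-1.06, adjusted p = 0.000393) and NRG1 (-1.61, adjusted p = 0.00431) at 24 h for NCI-N87 against MKN7. The NRG1 differences that involve MKN7 rest on counts near the floor in that line.

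Many of the differences between lines did not pass when 1 replicate was left out. Without replicate 1 of every group 8 calls were made, and without replicate 2 there were 6. For EGF at 24 h, AREG, EREG and HBEGF were lost without replicate 1 (adjusted p = 0.127, 0.337 and 0.174) and without replicate 2 (adjusted p = 0.132, 0.314 and 0.297). EREG for EGF was lost too with library size alone (-1.46, adjusted p = 0.0657) and with no filter (-1.60, adjusted p = 0.0535), and HBEGF for EGF was within the fold limit with library size alone (-0.95). For Cet at 24 h, AREG (2.54, adjusted p = 0.104) and HBEGF (1.66, adjusted p = 0.188) were lost without replicate 2, and HBEGF without replicate 3 (1.12, adjusted p = 0.268). For Afa at 24 h, EREG was lost without replicate 3 (1.94, adjusted p = 0.115), BTC without replicate 1 (0.98, adjusted p = 0.0625) and NRG2 without replicate 2 (0.88), whereas AREG and HBEGF passed under every alternative run.

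Several ligands differed in MKN1 between untreated cells at 4 h and 24 h. AREG (-1.10 ± 0.42 SE, adjusted p = 0.0394), EREG (-1.17 ± 0.38 SE, adjusted p = 0.016) and HBEGF (-1.15 ± 0.29 SE, adjusted p = 0.00256) were lower at 24 h, whereas EGF (1.39 ± 0.24 SE, adjusted p = 2.76e-05) and NRG4 (1.22 ± 0.29 SE, adjusted p = 0.00112) were higher. The AREG and EREG libraries of the 2 times overlapped, since replicate 3 at 24 h was as high as the lower replicates at 4 h. These 5 calls, of 37 member tests over the 4 lines (2.57% of all tests; 8.06% in MKN1), were all in MKN1. Within the fold limit, AREG (-0.72, adjusted p = 0.031) and EREG (-0.82, adjusted p = 0.0261) were lower at 24 h in NCI-N87, as was TGFA in MKN7 (-0.40, adjusted p = 0.00698), and in Hs746T AREG was higher (0.48, adjusted p = 0.045) and HBEGF lower (-0.56, adjusted p = 0.00154). Without replicate 1 there were 2 calls and without replicate 2 there were 3. AREG was lost in both cases (-1.0 each, adjusted p = 0.174 and 0.228), as were EREG (-0.98 and -1.04, adjusted p = 0.228 and 0.0843) and HBEGF (-0.91 and -1.01, adjusted p = 0.124 and 0.0657), and the EGF gene was within the fold limit without replicate 1 (0.96). With library size alone, AREG (-0.94, adjusted p = 0.0832) and HBEGF (-0.98) were lost. With the replicate block 8 passed, the further ones being EPGN in MKN1 (1.51) and NCI-N87 (-1.34) and, near the floor, NRG1 in MKN7 (-1.44). This block joined equal replicate numbers at 4 h and 24 h, and whether these pair across the times was not checked. The medium was changed shortly before treatment, and its part in these differences was not tested.

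Receptors, proteases and MAP kinase targets were measured beside the ligands. Of the receptor genes EGFR, ERBB2, ERBB3 and ERBB4, ERBB3 rose with Afa in NCI-N87, by 1.5 at 4 h and 1.85 at 24 h, and EGFR fell by 1.36 at 24 h, and no receptor gene passed in another line with EGF, Cet or Afa. ERBB3 binds neuregulins and has little kinase activity of its own. Of 10 genes for the shedding and transport of ligand precursors, ADAM12, a membrane protease, rose with EGF in MKN1 at 24 h (1.15), fell with Afa in MKN7 at 24 h (-1.31) and rose with Afa in NCI-N87 at 24 h (1.69), where RHBDL2, a rhomboid protease, also rose (1.15). ADAM17, the main protease of AREG, EREG, HBEGF and TGFA precursors, passed in none of these. Over both times, the shares of all tests that passed were 4.92% for EGF in MKN1 and 8.47% for Afa in MKN7. For Afa in NCI-N87 the share was 16.4%, and 29.6% at 24 h alone.

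Of 15 tested genes known as targets or brakes of the MAP kinase pathway, 8 rose with EGF in MKN1 at 4 h, against 1.23% of all genes tested (median log2 fold change 1.06, against 0.00 over all genes), among them DUSP6, a phosphatase of ERK (1.84), and SPRY4, an inhibitor of receptor signalling (1.62). With Afa in MKN1, 14 fell at 4 h (median -1.73) and 15 at 24 h (median -1.93), against 0.439% and 1.02% of all genes, with EGR1 at -4.81, SPRY4 at -4.50 and DUSP6 at -4.31 at 24 h. In MKN7, 13 and 15 fell (medians -2.07 and -2.34), against 1.59% and 3.25% of all genes, and in NCI-N87 15 and 15 (medians -2.11 and -2.71), against 1.22% and 11.5%. In Hs746T, none of 16 passed, with medians of 0.02 and -0.05. In untreated MKN1 over time, EGR1 (1.12) and FOS (1.28) rose among the 15 tested, where 8.06% of all genes passed in either direction. The other tested genes are not described for that contrast, so these 2 do not stand for the list.

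The genes with the most similar pattern were looked up over the 44 condition means by Pearson's r of log2 CPM centred within each line. For AREG they were EREG (r = 0.98), MAFF (0.97) and RAPH1 (0.95), for EREG AREG (0.98), MAFF and FOSL1 (0.96 each), for HBEGF MAFF (0.96), UAP1 (0.96) and PLAUR (0.95), and for TGFA WWTR1 (0.95), CDCP1 (0.94) and LIF (0.92). NRG1 had no close match, with ME1 (0.80) first. BTC was at r = -0.55 against AREG. All conditions of a line share its mean, and many share a treatment, so these r are descriptions and no test was run.

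The makeup of the ligand RNA also differed between Afa and untreated cells. The summed RPKM of the 10 genes at 24 h was 28.0 ± 12.7 (SD, n = 3) in untreated MKN1 and 12 ± 0.455 with Afa. It went from 124 to 53.8 in MKN7, from 52.2 to 34.7 in NCI-N87 and from 31.8 to 28.7 in Hs746T. In NCI-N87, EREG went from 13.3% to 2.73% of the sum, BTC from 4.68% to 18.5% and NRG4 from 10.3% to 28.5%. In MKN1, AREG went from 19.9% to 4.97%, BTC from 6.03% to 20.6% and TGFA from 14.4% to 30.4%, although neither BTC (0.68, adjusted p = 0.0687, edgeR) nor TGFA was called there. In MKN7, TGFA went from 37.1% to 52.4%. With EGF at 4 h, the sum in MKN1 went from 55.8 to 165. These shares are parts of a whole, so that a share can grow because other members fell.

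**Figure D5:**
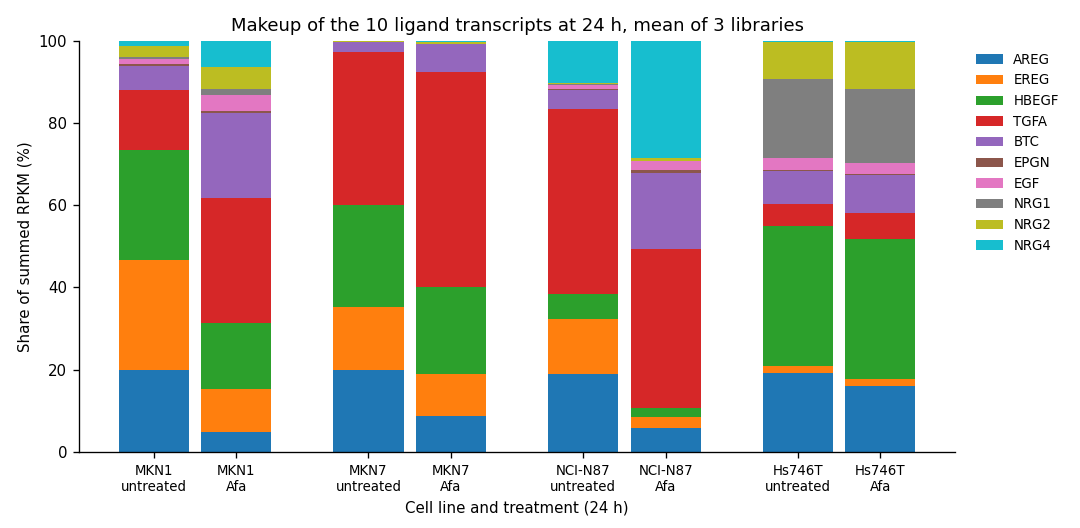
Share of each ligand gene in the summed RPKM of the 10 genes, in percent, at 24 h in untreated cells and with Afa, as means of 3 libraries in the 4 lines. The parts of BTC and NRG4 are larger with Afa in NCI-N87 (18.5% and 28.5%), and the makeup of Hs746T is much the same in both bars.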

How the data were processed

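Poly(A) RNA from the cultures was sequenced as paired ends with a directional kit. The authors deposited raw read counts per Ensembl gene for each library. The submitters' processing notes name Trim Galore, STAR and hg38, and the counter, its strand setting and the annotation are not given in the sources used here. Symbols were taken from GENCODE 29, which lacked 8404 of 65217 identifiers (0.0422% of counts). The 37 mitochondrial identifiers held 0 counts.

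From the counts, edgeR 4.0.16 (R 4.3.3) was fitted per line with TMM scaling (factors 0.871 to 1.23), filterByExpr (minimum count 10, minimum total 15), 1 mean per treatment and time, and the quasi-likelihood test. Differences between lines came from 1 fit of all libraries. P-values were adjusted over all genes tested by Benjamini-Hochberg, and a gene was called when its adjusted p was below 0.05 and its log2 fold change above 1 or below -1. In text, rose and fell refer to such calls. CPM used TMM scaling over all libraries, and RPKM the union of annotated exons. Percentages of all tests are over the same contrasts and all genes. On simulated counts, the MKN1 EGF 4 h contrast (19313 genes) recovered 97% of genes changed by 1.5 on the log2 scale, and the NCI-N87 Afa 24 h contrast (18609 genes) 99%. The changed genes were not drawn from the lowest expressed ones, and the replicates were drawn independently. These percentages therefore do not cover rare members or deviations shared by same-numbered libraries.

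Groups came from the labels. Replicates did not duplicate each other. Deviations of same-numbered libraries from their condition means correlated at 0.11 or more in every pair of every line and time except MKN1 at 24 h (mean 0.24, lowest -0.02). The numbers were thus taken to pair samples elsewhere. A fit with the replicate number as a block was an alternative, and it was run for MKN1 at 24 h too. For comparisons between the times, the block joined equal numbers at 4 h and 24 h, a pairing that was not checked. The main tests and the fits without a replicate used no pairing, so their standard errors include differences between replicate numbers. Sample numbers in the labels run in 2 series (65 and 67 libraries), and all treatments of a line, time and replicate number share a series. Named were the 10 members, list genes with the largest changes among those called (at most 4 per contrast), protein-coding genes within 500 kb of EPGN to BTC, and the 3 genes most similar to AREG, EREG, HBEGF, TGFA and NRG1 over condition means of log2 CPM (prior count 2) among genes above 1 in every line. Members and lists were chosen with earlier results of these data known. Alternatives were DESeq2 1.42.0, scaling to library size alone, all genes kept, a minimum of 10 counts in each library, the compared groups alone, adjusted p alone, the longest transcript as length, and leaving out each replicate. Solvent controls for Afa were not analysed here. Tables and figures were made with Python 3.11.15, pandas 2.3.3 and matplotlib 3.10.9.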

Additional observations from a re-analysis of the deposited data

Results flagged for a closer look

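Each result named here passed a test of a difference between effects, either between 24 h and 4 h in 1 line or between 2 lines at 1 time (edgeR, adjusted over all genes, log2 scale). Groups of 3 replicates were not screened for single outlying samples. Between the times, the effect of EGF on the EGF gene in MKN1 differed by -1.42 (adjusted p = 0.0109), which was lost without replicate 1 (adjusted p = 0.218) and without replicate 2 (adjusted p = 0.221). In NCI-N87, the effect of Afa differed between the times by 1.99 for EPGN (adjusted p = 0.00299), 1.28 for BTC (adjusted p = 4.21e-06), -1.07 for EREG (adjusted p = 0.000959) and -1.04 for HBEGF (adjusted p = 0.000848). EPGN is rare there, at 0.147 to 0.685 CPM in untreated cells, and was lost without replicate 2 (adjusted p = 0.0543). EREG and HBEGF were within the fold limit with library size alone, with no filter, with at least 10 counts in every library and without replicate 3.

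Between Hs746T and MKN1 at 4 h, the effect of Afa differed by 2.31 for AREG (adjusted p = 0.00127) and 1.17 for HBEGF (adjusted p = 0.0492), that of EGF by -1.94 for AREG (adjusted p = 0.00457) and -1.12 for HBEGF (adjusted p = 0.0351), and that of Cet by 2.02 for AREG (adjusted p = 0.0163). Each of these 4 h differences was lost without replicate 1 and without replicate 2, with adjusted p = 0.0683 and 0.11 for AREG with Afa, 0.231 and 0.609 for HBEGF with Afa, 0.191 and 0.254 for AREG with EGF, 0.289 and 0.622 for HBEGF with EGF and 0.361 and 0.341 for AREG with Cet. HBEGF with Afa was lost too with library size alone (adjusted p = 0.0615), with no filter (adjusted p = 0.08) and without replicate 3 (adjusted p = 0.0699). At 24 h, the effect of Afa differed by 2.89 for AREG (adjusted p = 2.22e-05), 2.62 for EREG (adjusted p = 0.000987) and 1.78 for HBEGF (adjusted p = 5.7e-05). That of EGF differed by -1.73 for AREG (adjusted p = 0.00465), -1.60 for EREG (adjusted p = 0.0442) and -1.11 for HBEGF (adjusted p = 0.00988), and by 1.80 for the EGF gene (adjusted p = 3.7e-05) and 1.85 for NRG4 (adjusted p = 0.0027), which fell in MKN1. That of Cet differed by 2.46 for AREG (adjusted p = 0.00186) and 1.51 for HBEGF (adjusted p = 0.00605). Among the lines with calls for Afa, NRG2 differed by 1.24 between NCI-N87 and MKN1 (adjusted p = 4.75e-05) and BTC by 1.09 between NCI-N87 and MKN7 (adjusted p = 0.00119), both at 24 h. Of the differences between lines at 24 h, those of AREG and HBEGF with Afa and of the EGF gene and NRG4 with EGF passed under every alternative run, and each of the others was lost without at least 1 replicate. Hs746T also had more VIM (1590 against 468 CPM) and COL1A1 (566 against 13.4 CPM) than MKN1 in untreated cells. EPCAM (30.4 and 23.5 CPM) and CDH1 (0.821 and 2.02 CPM) were low in both lines. What part these features have in the differences was not tested.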

How the results depend on the processing

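Of 1029 values of the 128 member calls under alternative settings, 948 stayed past the test and the fold limit in the same direction, 81 did not and 0 reversed, and 42 of the calls were lost at least once. DESeq2, the fit of only the compared groups and the replicate block lost none of the calls they were run on. Scaling by library size alone lost 11, no filter on low counts 4, at least 10 counts in every library 3, and leaving out replicate 1, 2 or 3 lost 27, 26 and 10. The cause was not tested, but fits without a replicate rest on 2 samples per group.

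Leaving out 1 replicate gave 6 to 10 calls for EGF in MKN1, 3 to 5 for Cet in MKN1, 2 to 5 for untreated cells at 24 h against 4 h, 3 to 4 for the difference in effect between the times and 6 to 15 for that between lines. With the replicate block, the counts were 1 for EGF+Cet against EGF in MKN1 (AREG at 24 h, -1.01, adjusted p = 0.000381), 8 for untreated 24 h against 4 h and 31 for the difference between lines, and the block changed no other count by more than 1.5 times. Calls by adjusted p without a fold limit were 15 for Tra+Afa in NCI-N87 and 11 for untreated 24 h against 4 h. The difference in effect between the times gave 3 calls with library size alone, 3 with no filter and 3 with at least 10 counts in every library. Library size alone moved the median of all genes by more than 0.1 in several contrasts, most in NCI-N87 at 24 h (0.26 for Afa and 0.31 for Tra+Afa). Members under 1 CPM are the ones depth limits most, EPGN above all.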
